A study of Mus musculus with 5 samples.

Results

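Histone marks were read at 6 genes of the primitive streak, Wnt3, T, Eomes, Mixl1, Mesp1 and Mesp2, in EpiSC9, an established epiblast stem cell line from mouse. The genes were chosen by name, and their chromatin was read in 5 windows of the mm9 genome, with Mesp1 and Mesp2 in a shared window. The windows totalled 310 kb, and all peaks that shared at least 1 bp with a window were taken. They numbered 90 of the 156288 peaks in the 4 lists: 16 of H3K4me3, 20 of H3K27me3, 8 of H3K27ac and 46 of H3K4me1. The windows were 70 kb for T (chr17:8590000-8660000), 60 kb for Eomes (chr9:118360000-118420000) and 40 kb for Mixl1 (chr1:182605000-182645000). They were 50 kb for Mesp1 and Mesp2 (chr7:86925000-86975000) and 90 kb for Wnt3 (chr11:103610000-103700000). The cells were kept with 10 ng/ml FGF2 on irradiated embryonic fibroblasts, and each mark was immunoprecipitated from 5000000 crosslinked cells. There was 1 library per mark, with no other line or condition among the samples used, so no test across samples was possible and every value describes these libraries. An input library was not analysed here. The share of fibroblast DNA in the libraries is unknown, and bulk chromatin cannot tell whether marks at a locus lie in the same cells.

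The primitive streak is the part of the gastrulating embryo where epiblast cells leave the epithelium and become mesoderm and endoderm. Wnt3 encodes the Wnt ligand that mouse embryos need to form a streak; Wnt signalling acts through beta-catenin and TCF/LEF factors, and Nodal signalling acts through SMAD proteins with FOXH1. T (Brachyury) and Eomes encode T-box transcription factors, Mixl1 a paired-type homeodomain factor, and Mesp1 and Mesp2 basic helix-loop-helix factors of early mesoderm. H3K4me3 lies at promoters, H3K4me1 at enhancers and beside promoters, H3K27ac at active elements, and H3K27me3 at genes held silent by Polycomb complexes. H3K4me3 together with H3K27me3 is called bivalent and is known from promoters of developmental genes in pluripotent cells. EpiSC9 cells stand for the primed state, close to gastrulation.

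Promoter sequences from RefSeq show how the members differ in the letters that these signalling factors and Polycomb-bound CpG islands are known for. They are of build GRCm38.p6, so they could not be placed on the mm9 peaks and carry no mark here. Of the 6 genes, 5 were in the RefSeq promoter table, and Mixl1 was not. Each entry holds 300 bases, from 250 before to 50 after a transcript's start, 5′ to 3′. Shown are the 3 promoters with a match to a TCF/LEF, T-box or FOXH1 motif, with matches to CTTTGAT or CTTTGAA (TCF/LEF), AGGTGTGA (T-box element) and AATCCACA or AATACACA (FOXH1) in capitals, on either strand. T is at chr17:8434173-8434472 (plus strand), Mesp1 at chr7:79793541-79793840 (minus strand) and Mesp2 at chr7:79810477-79810776 (plus strand), all in GRCm38.p6.
T: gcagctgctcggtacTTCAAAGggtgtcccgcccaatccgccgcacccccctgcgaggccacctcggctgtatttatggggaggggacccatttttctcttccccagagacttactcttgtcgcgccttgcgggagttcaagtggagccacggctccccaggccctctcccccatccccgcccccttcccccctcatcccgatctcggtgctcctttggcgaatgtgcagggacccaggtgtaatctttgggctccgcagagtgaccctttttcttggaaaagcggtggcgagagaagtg
Mesp1: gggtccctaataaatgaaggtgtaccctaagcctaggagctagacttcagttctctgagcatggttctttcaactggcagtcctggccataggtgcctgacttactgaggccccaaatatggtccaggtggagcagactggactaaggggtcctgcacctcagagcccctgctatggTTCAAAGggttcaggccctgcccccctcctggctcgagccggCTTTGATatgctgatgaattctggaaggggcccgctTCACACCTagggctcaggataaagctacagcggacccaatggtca
Mesp2: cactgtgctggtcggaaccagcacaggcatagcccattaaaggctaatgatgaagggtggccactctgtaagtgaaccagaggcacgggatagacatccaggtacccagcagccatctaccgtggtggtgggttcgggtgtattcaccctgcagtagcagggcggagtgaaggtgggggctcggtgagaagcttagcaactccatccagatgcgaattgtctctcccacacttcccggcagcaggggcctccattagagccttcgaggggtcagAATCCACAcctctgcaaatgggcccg

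In Mesp1, TCF/LEF letters lay at bases 178 to 184 and 220 to 226 of the printed run, and a T-box element at bases 256 to 263. The T promoter held TCF/LEF letters at bases 16 to 22, and the Mesp2 promoter held FOXH1 letters at bases 275 to 282. Of all 32851 promoters in the table, 8.65% held the TCF/LEF letters, 1.28% the T-box element and 1.82% the FOXH1 letters. Eomes and Wnt3 held none of these 3 motifs. The SMAD letters CAGACA, matched in full, were in 0 of the 5, against 21.0% of all promoters. The exact letters TATAAA of a TATA box were also in 0 of the 5, against 13.6%. Shorter or variant forms of these 2 motifs were not searched, and the Eomes promoter holds TATATAAG. The E-box letters CANNTG were in 4 of the 5, all but Eomes, against 72.3%. Among 24 other genes of the streak, 16 matched, with 18 promoters between them. TCF/LEF letters lay in 4 of these, TATAAA in 4, SMAD letters in 2, the E-box in 11, and the T-box and FOXH1 letters in 0. CpG content ranged widely. The ratio of observed to expected CpG was 0.744 in Wnt3 (24 CpG), 0.607 in T (17 CpG), 0.607 in Eomes (10 CpG), 0.403 in Mesp2 (10 CpG) and 0.174 in Mesp1 (4 CpG). The median was 0.384 over all promoters and 0.695 over the other streak genes, so Wnt3 lay above both medians, T, Eomes and Mesp2 between them, and Mesp1 below both.

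The windows had different combinations of marks. T, Eomes, Mesp1 with Mesp2, and Wnt3 carried H3K27me3 on H3K4me3, whereas Mixl1 had H3K4me3 with neither H3K27 mark. H3K27ac was present at Eomes and Wnt3, lay far from H3K4me3 at T, and had 0 peaks at Mixl1 and at Mesp1 with Mesp2. The most extensive mark was H3K4me1, which covered 38.2% of the T window, 44.4% at Eomes, 20.9% at Mixl1, 44.0% at Mesp1 and Mesp2 and 36.1% at Wnt3. Median peak widths of the members were 1461.5 bp for H3K4me3 (981 bp in the whole list), 611.5 bp for H3K27me3 (405 bp), 628.5 bp for H3K27ac (818 bp) and 2182 bp for H3K4me1 (1541 bp). Scores are the authors' own and rank peaks only within a list. The median score of the members was above the list's for H3K4me3 (1160 against 888), H3K27me3 (119 against 69.1) and H3K4me1 (232 against 128), and below it for H3K27ac (130 against 163).

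**Figure D1:**
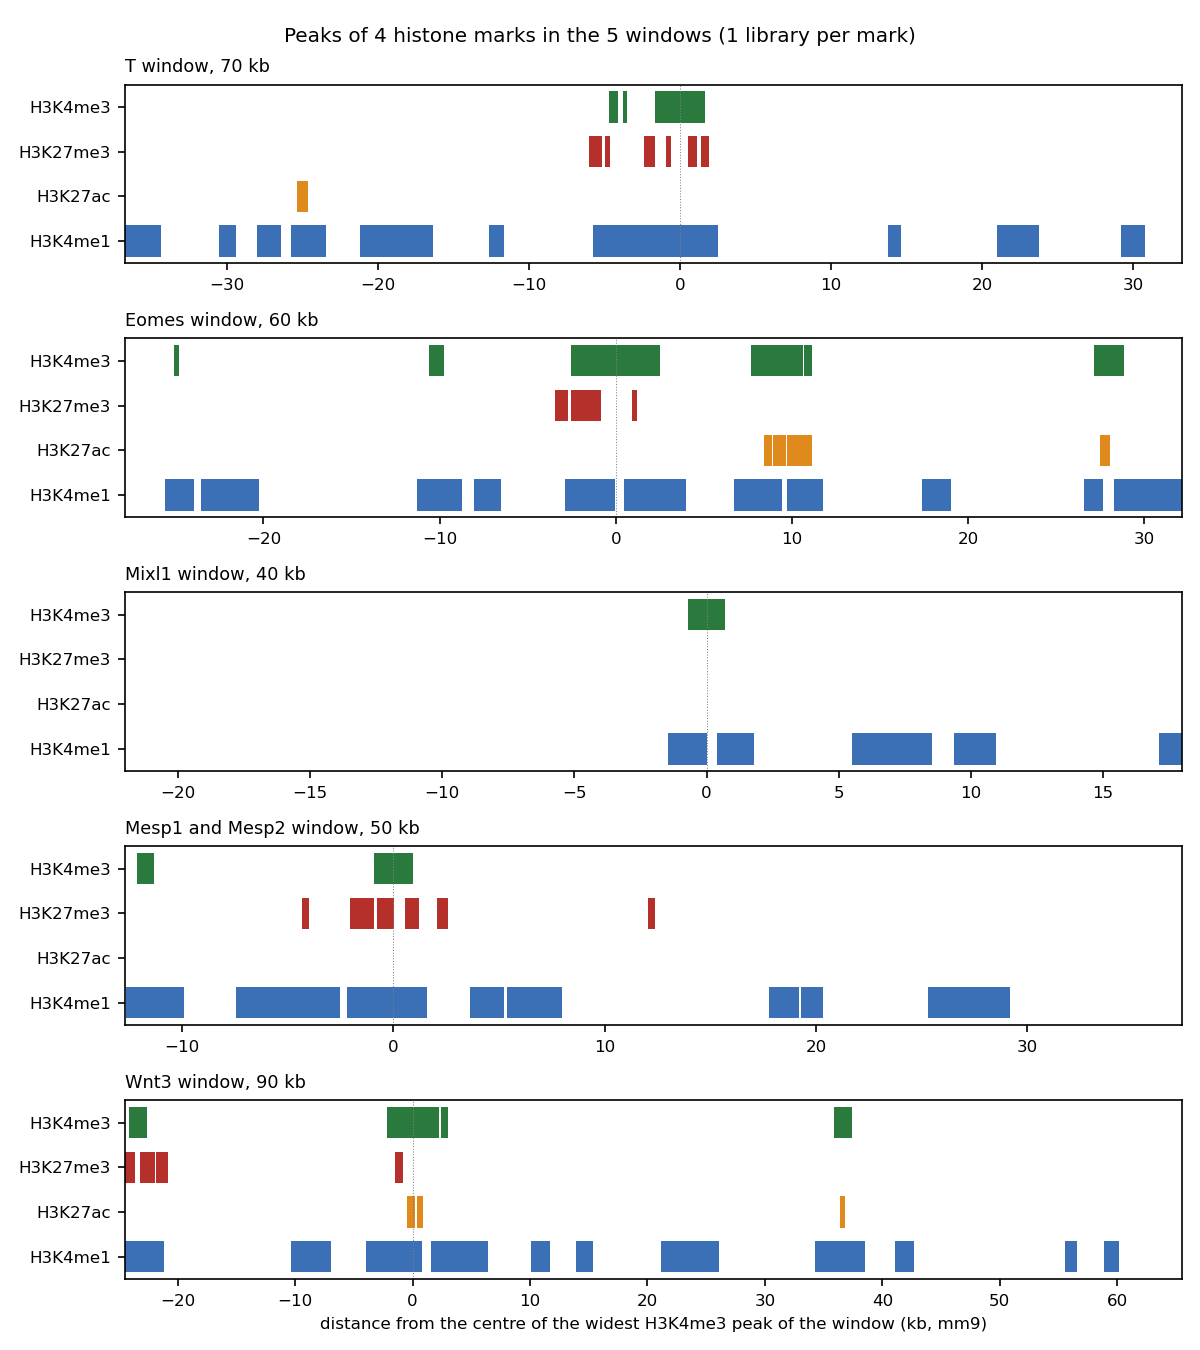
Peak intervals of the 4 marks (rows) in the 5 windows, drawn by distance in kb from the centre of the widest H3K4me3 peak of each window; peaks that cross an edge are cut there. H3K27me3 gathers around the centre at T, Eomes and Mesp1 with Mesp2, is listed in 0 peaks at Mixl1, and stands mostly at the left edge of the Wnt3 window.

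At Wnt3 the widest H3K4me3 peak carried both H3K27 marks at different places. This peak (chr11:103632263-103636686, mm9) was 4424 bp long and ranked 128th by width of 28941 H3K4me3 peaks. It scored 3100, a level that 25.4% of those peaks reached or exceeded. H3K27me3 peaks of 386 bp (score 85.68) and 281 bp (score 69.64) covered 15.1% of it. H3K27ac peaks of 712 bp (score 124.32) and 459 bp (score 62.2) covered 26.5%, beginning 310 bp after the H3K27me3 ended. No H3K27me3 base in any of the 5 windows lay on H3K27ac, and in the whole H3K27me3 list only 0.654% of bases did. Peaks with both marks were 1 of 16 in the windows (6.25%) and 1.03% of the H3K4me3 list (299 of 28941). The share was 7.68% among the 963 H3K4me3 peaks of 3 kb or more.

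Most H3K27me3 of the Wnt3 window was elsewhere. At its lower edge, an H3K4me3 peak of 1533 bp (score 2198.35) was 72.6% covered by H3K27me3, within a domain of 4.58 kb covered (498th of 7561 domains of H3K27me3 peaks joined within 5 kb) that crossed the edge. The H3K27me3 scores there, 644.64, 436.88 and 199.64, included the highest of the 5 windows. The domain on the main peak covered 0.667 kb. In the RefSeq gene order Wnt9b comes directly before Wnt3 among protein-coding genes, and the edge domain was not assigned to either gene. Far beyond the main peak, an H3K4me3 peak of 1555 bp (score 1318.92) held H3K27ac of 396 bp (score 134.78) inside an H3K4me1 peak of 4260 bp. The remaining H3K4me3 peak, 575 bp with a score of 132.35, had no H3K27 mark.

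At T, the widest H3K4me3 peak (chr17:8625119-8628387, mm9) was 3269 bp long and scored 3100. It ranked 618th of 28941. It was overlapped by 3 H3K27me3 peaks, with scores of 58.72, 94.57 and 65.73, which covered 34.5% of it. A further H3K27me3 peak of 735 bp with a score of 166.59 ended 0.023 kb before it. Together with 2 more, the 6 H3K27me3 peaks of the window formed a domain of 7.94 kb, of which 3.33 kb was covered (728th of 7561). The peak was 23.0 kb from the nearest H3K27ac, whereas H3K4me3 peaks with H3K27me3 alone lay a median of 46.5 kb from it (interquartile range 17.9 to 97.6, n = 4518).

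A single H3K4me1 peak of 8324 bp spanned all 3 H3K4me3 peaks of the T window and ranked 294th by width of 76772. The other H3K4me3 peaks were small, at 581 bp (score 72.79) and 251 bp (score 55.15). The 581 bp peak shared 57 bp (9.81%) with an H3K27me3 peak scoring 58.59, and the 251 bp peak had no H3K27 mark. The only H3K27ac peak in the window, 697 bp with a score of 155.89, lay before the H3K4me3 peaks, inside a distal H3K4me1 peak of 2327 bp. The nearest H3K27ac outside the window was 0.056 kb before its edge, 402 bp wide with a score of 58.72.

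Eomes had the most H3K4me3. Its 6 peaks covered 11.2 kb, against 1.39 kb (1 peak) at Mixl1, 2.66 kb (2 peaks) at Mesp1 and Mesp2, 4.10 kb (3 peaks) at T and 8.09 kb (4 peaks) at Wnt3. The widest (chr9:118385331-118390370, mm9) was 5040 bp, ranked 59th of 28941 and scored 3100. H3K27me3 covered 39.3% of it through peaks of 1699 bp (score 459.12) and 295 bp (score 77.97). The 1699 bp peak lay almost wholly on the H3K4me3 peak, with 1685 bp shared, at its lower-coordinate end. H3K4me1 flanked the middle of this peak, as 2 H3K4me1 peaks of 2803 and 3514 bp left a gap of 560 bp within it.

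Acetylated chromatin stood beside this bivalent peak in the Eomes window. A second H3K4me3 peak of 2919 bp (score 2212.84), beyond the first, was 71.9% covered by H3K27ac and carried no H3K27me3. The H3K27ac peaks there, of 460, 732 and 1452 bp, reached scores of 53.61, 140.96 and 445.25 and formed a cluster with 2.64 kb covered (4225th of 16953 such clusters). The last was the strongest H3K27ac peak of all 5 windows and the only one of 8 above the list's median score of 163. Another H3K4me3 peak, 1734 bp wide and also at 3100, held an H3K27ac peak of 560 bp (score 110.98) near the end of the window. The remaining H3K4me3 peaks of the window were 443 bp wide (score 115.23, wholly inside H3K27ac), 822 bp (score 485.86) and 251 bp (score 51.64), the last 2 without an H3K27 mark. Whether the acetylated peaks belong to Eomes was not determined. The non-coding gene Gm33460 is the next entry after Eomes in the RefSeq gene order of GRCm38.p6, before Golga4.

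Mixl1 had neither H3K27 mark. Its window held a single H3K4me3 peak (chr1:182626308-182627697, mm9) of 1390 bp with a score of 1779.25. The closest H3K27me3 peak was 129.7 kb away and the closest H3K27ac peak 27.7 kb away. H3K4me3 peaks with neither H3K27 mark made up 35.2% of the list (10187 of 28941) and were mostly small, at the median 497 bp wide and with a score of 181. Within that class, 12.8% scored as high as the Mixl1 peak and 12% were as wide. H3K4me1 peaks of 1471 and 1403 bp flanked it with a gap of 358 bp, and 3 more lay beyond, the widest 3025 bp.

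The window of Mesp1 and Mesp2 had bivalent chromatin at its strongest H3K4me3 peak. This peak (chr7:86936772-86938604, mm9), 1833 bp wide, scored 1000.59 and was 62.4% covered by 2 H3K27me3 peaks of 771 bp (score 178.51) and 672 bp (score 162.04). An H3K27me3 peak of 1132 bp (score 153.77) ended 0.004 kb before it. The domain of 5 peaks spanned 6.91 kb, with 3.42 kb covered (704th of 7561). The nearest H3K27ac lay 18.8 kb away, outside the window. The other H3K4me3 peak, 825 bp with a score of 184.06 and no H3K27 mark, lay near the start of the window.

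The bivalent peak was not assigned to either Mesp gene, since gene starts on mm9 were not used here. In GRCm38.p6 the promoter entries of Mesp1 and Mesp2 lie further apart than this peak is wide. A bivalent state of both genes therefore cannot be read from it. After the bivalent peak, the window held H3K4me1 peaks of 1628, 2596, 1418, 1042 and 3889 bp without H3K4me3. Mesp1 directly precedes Mesp2 in the RefSeq gene order, with Wdr93 before the pair and Anpep after it among protein-coding genes.

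**Figure D2:**
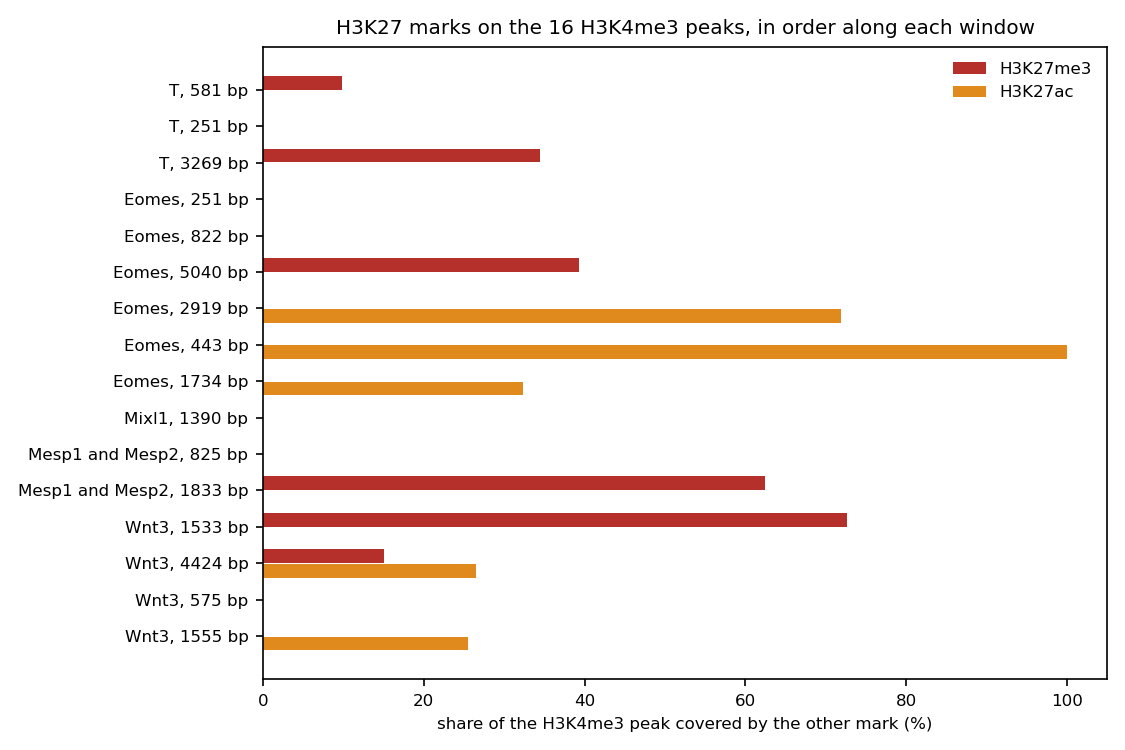
Share of each of the 16 H3K4me3 peaks (rows, with width in bp) covered by H3K27me3 and by H3K27ac, in percent. Only the 4424 bp peak at Wnt3 has both, and 6 of the 16 have neither, among them the 1390 bp peak at Mixl1.

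Counted together, 6 of the 16 H3K4me3 peaks overlapped H3K27me3 (37.5%, 95% Wilson interval 18.5 to 61.4), against 16.6% of all H3K4me3 peaks. Of these 6, the 581 bp peak at T met H3K27me3 by 57 bp only. H3K27ac lay on 5 of 16 (31.2%, 14.2 to 55.6), against 49.2% of the list, which the interval contains. Neither mark lay on 6 of 16 (37.5%), against 35.2%. The peaks of a window are neighbours and not independent, so these intervals are too narrow, and the difference from the list was not tested. At T, Eomes and Wnt3 the widest peak was 3 kb or longer, and all 3 overlapped H3K27me3, against 28.6% of the 963 such peaks. H3K27ac lay on 1 of these 3, at Wnt3, against 74.7% of the 963. The 3 kb limit was chosen after the widths were seen, and both shares depend on it. Just under it was the 2919 bp peak at Eomes, 71.9% covered by H3K27ac and without H3K27me3.

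The bivalent calls at the widest peaks of T and Wnt3 depended on the score required. The H3K27me3 peaks on them scored 94.57, 65.73 and 58.72 at T and 85.68 and 69.64 at Wnt3, around the list's median of 69.1. With scores of 100 or more in both marks, 3 of 13 H3K4me3 peaks were on H3K27me3, against 13.4% of the list. These were at Eomes, at Mesp1 with Mesp2 and at the edge of the Wnt3 window, and the widest peaks of T and Wnt3 had none. With scores at or above each list's median, T and Wnt3 kept H3K27me3 on their widest peaks, and the count was 5 of 9 (55.6%), against 14.7% of the list. Among the 4817 H3K4me3 peaks with H3K27me3, the median share covered was 61.8% (interquartile range 30.6 to 97.7). The widest peaks of T (34.5%) and Eomes (39.3%) were within this range, that of Mesp1 and Mesp2 (62.4%) was near the median, and that of Wnt3 (15.1%) was below the range.

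H3K27me3 in these windows lay largely inside H3K4me1. Of the 20 peaks, 18 overlapped H3K4me1 (90%), against 41.3% of all H3K27me3 peaks, and the 2 that did not were at Mesp1 and Mesp2, with scores of 51.59 and 51.17. H3K4me3 was met by 12 of 20 (60%), against 33.2% of the list. By length, 79.0% of the H3K27me3 bases of the members were inside H3K4me1, against 46.9% for the list. Inside H3K4me3 were 40.3% of them, against 28.2% for the list. All 8 H3K27ac peaks overlapped H3K4me1, against 77.8% of the list, and 7 of 8 overlapped H3K4me3, against 42.1%; the exception was the peak at T. Of the H3K4me3 bases, 17.0% were inside H3K27ac in the members, against 47.2% for the list, and 22.2% were inside H3K27me3, against 10.4%.

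Covered length was set beside autosomal tiles of the same length as each window that held H3K4me3. H3K27me3 covered 3.33 kb at T, 2.73 kb at Eomes, 3.78 kb at Mesp1 and Mesp2 and 3.89 kb at Wnt3. Between 69.0% and 74.4% of the tiles of these lengths held none. Tiles with at least as much H3K27me3 made up 6.21% for T, 6.95% for Eomes, 4.89% for Mesp1 and Mesp2 and 5.89% for Wnt3. Against all autosomal tiles, with or without H3K4me3, these shares were 2.11%, 2.16%, 1.36% and 2.30% in the same order. At Wnt3 most of this length was the edge domain, and 0.667 kb lay on the widest H3K4me3 peak. Mixl1 was at 0, like 76.0% of its tiles. For H3K27ac, T had 0.697 kb (tile median 1.53 kb), Eomes 3.20 kb (1.43 kb) and Wnt3 1.57 kb (1.80 kb). Tiles with at least as much were 63.0% for T, 25.7% for Eomes and 53.7% for Wnt3. Against all autosomal tiles, whose median was 0, they were 29.2%, 9.28% and 25.4%, so T and Wnt3 lay below the median of tiles with H3K4me3 and above that of all tiles. Mixl1 and Mesp1 with Mesp2 were at 0, like 35.0% and 33.1% of their tiles.

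H3K4me1 stood above the tiles in 4 of the 5 windows. It covered 26.7 kb at T (tile median 6.88 kb), 26.7 kb at Eomes (6.24 kb), 22.0 kb at Mesp1 and Mesp2 (5.58 kb) and 32.5 kb at Wnt3 (8.21 kb). Tiles with at least as much were 4.11%, 2.62%, 3.37% and 3.97% in that order. At Mixl1 it covered 8.36 kb (4.86 kb), a length reached by 27.2% of tiles. For H3K4me3 the share of tiles with at least as much was 19.0% for T, 0.747% for Eomes, 63.8% for Mixl1, 32.1% for Mesp1 and Mesp2 and 5.53% for Wnt3.

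**Figure D3:**
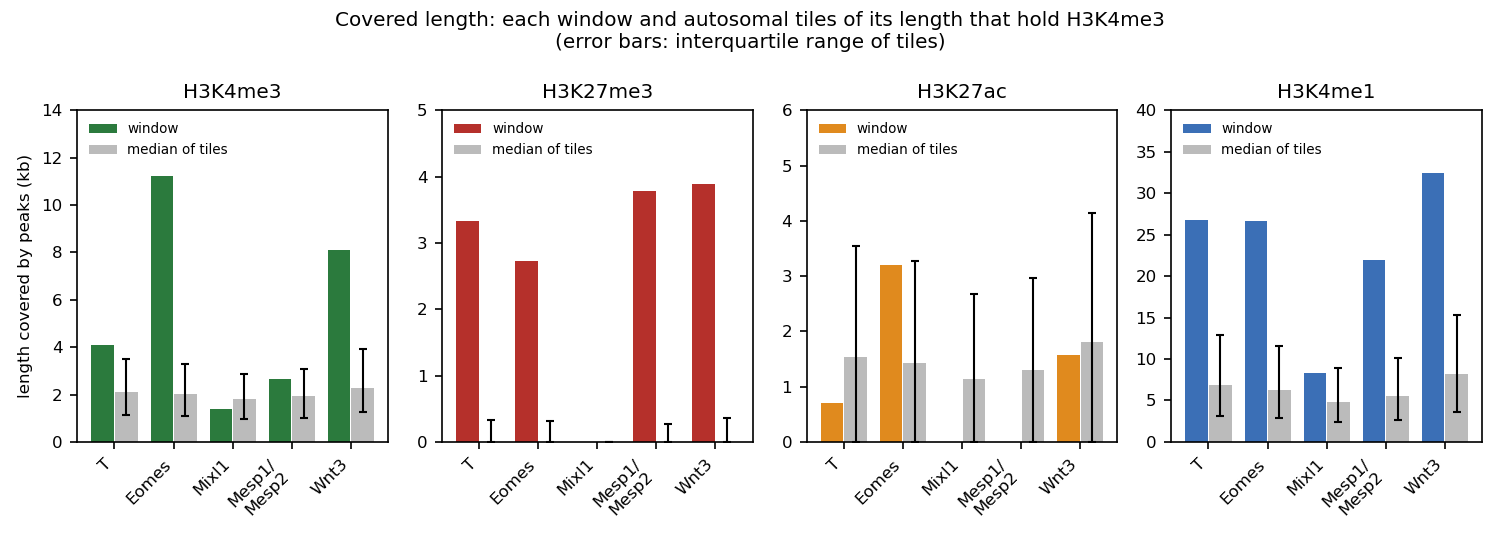
Length covered by peaks of each mark (kb, separate axes) in each window (coloured bars) and the median of autosomal tiles of the same length that hold H3K4me3 (grey bars, with the interquartile range). H3K27me3 and H3K4me1 bars of T, Eomes, Mesp1 with Mesp2 and Wnt3 rise above the tiles' range, while no H3K27ac bar does.

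All 16 H3K4me3 peaks overlapped H3K4me1, against 83.2% of the list. In 5 of them (31.2%), at Eomes (3), Mixl1 and Wnt3, separate H3K4me1 peaks left a gap between them, against 16% of the list. The gaps were 560, 276 and 622 bp at Eomes, 358 bp at Mixl1 and 781 bp at Wnt3. At T and at Mesp1 with Mesp2, H3K4me1 ran through the widest H3K4me3 peak without a gap.

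Away from H3K4me3, the H3K4me1 peaks mostly lacked acetylation, as did most of the list. Of the 29 H3K4me1 peaks with no H3K4me3 within 1 kb, 2 overlapped H3K27ac (6.90%, 95% Wilson interval 1.91 to 22.0), against 18.7% of the 51179 such peaks of the list, a value the interval contains. Both were in the T window, at 4107 and 2327 bp, and the H3K27ac on the first lay just outside the window. One, of 4905 bp at Mesp1 and Mesp2, met an H3K27me3 peak of 312 bp (3.45%, against 0.897% of the list), and 26 (89.7%) carried neither H3K27 mark, against 80.5% of the list, which lies inside their Wilson interval (73.6 to 96.4).

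Their median width was 1628 bp, against 1464 bp for all distal peaks, and their median score was 128, against 110. The widest without any H3K27 mark were 4853 bp at T (score 652.31), 3889 bp at Mesp1 and Mesp2 (score 540.77), 3466 bp at Wnt3 (score 362.8), 3253 bp at Eomes (score 219.52) and 3025 bp at Mixl1 (score 250.31). By count, the windows held 9 distal peaks at T, 3 at Eomes, 3 at Mixl1, 6 at Mesp1 and Mesp2 and 8 at Wnt3.

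**Figure D4:**
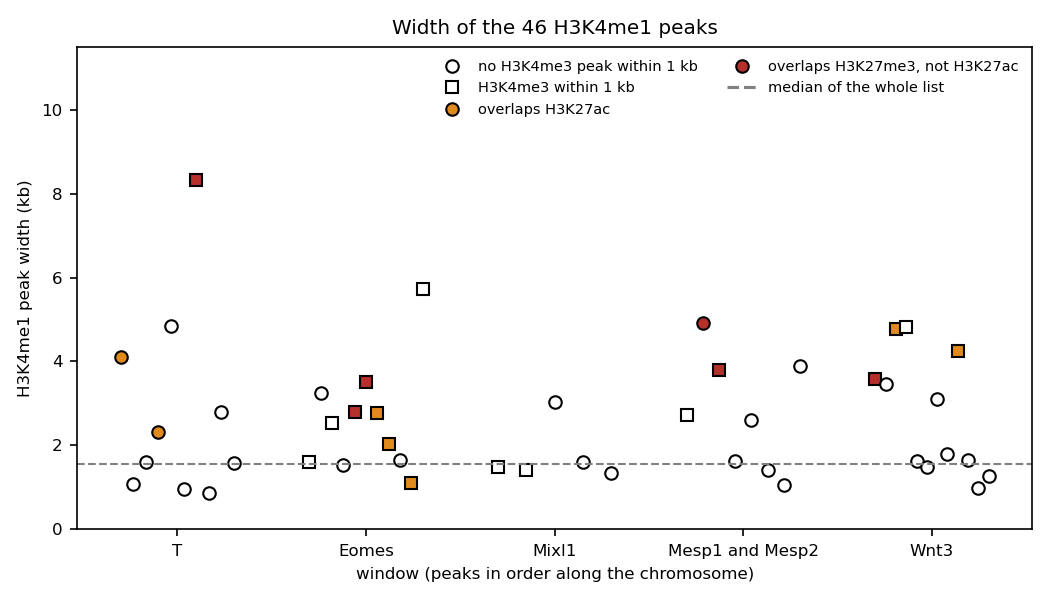
Width in kb of each H3K4me1 peak by window, in order along the chromosome; shape shows whether H3K4me3 lies within 1 kb, colour shows overlap with H3K27 marks, and the dashed line is the median of the whole list (1541 bp). The 4767 bp peak at Wnt3, drawn as overlapping H3K27ac, also overlaps H3K27me3, and the 8324 bp peak at T stands highest.

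At the window edges, 5 peaks crossed. Beyond them, the nearest H3K27me3 peak after the Mesp1 and Mesp2 window was 750 kb away, and after the Wnt3 window 293 kb away. Before the T window it was 4.99 kb away (387 bp, score 52.52). Strong H3K4me3 peaks of 2378 and 2396 bp, each at 3100, lay 32.3 kb before and 10.3 kb after the Mixl1 window, where Lin9 and Acbd3 are the coding neighbours in the RefSeq gene order.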

How the data were processed

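Chromatin immunoprecipitation with sequencing of 4 histone marks in EpiSC9 gave 1 peak list per mark, grouped by the antibody in the labels. The authors deposited peak intervals on mm9, each with 1 score. Bowtie 0.12.9, MACS 1.4 and Cufflinks are named in the submitters' processing notes, without a role. How peaks were called (control, threshold) and at what depth is not stated in the labels or files, so scores served within a list only, and a mark without a peak may be below detection. Deeper libraries give more and wider peaks, which affects every overlap.

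Overlap meant at least 1 bp. Distal H3K4me1 had no H3K4me3 within 1 kb. H3K27me3 peaks were joined within 5 kb and H3K27ac peaks within a wider distance, that customary for joining enhancers. Ranks are by width or covered length. Tiles started at position 1 of each of the 19 autosomes. Every peak of a window was counted; those described singly were the widest of each mark, H3K4me3 peaks on an H3K27 mark, and the longest domains, with further peaks described beside them after their values were seen. Members and lists were chosen with earlier results of these data known. Wilson intervals (95%) cover counting only. The states of other streak genes were not analysed here for want of mm9 positions. Coordinates are 1-based. Overlap and joining were tested on simulated data. Python 3.11.15, numpy 2.4.6, pandas 2.3.3, scipy 1.17.1 and matplotlib 3.10.9 were used.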

Additional observations from a re-analysis of the deposited data

How the results depend on the processing

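No paired analysis was possible because each mark had 1 library. Shares were taken as moved when they left the main value's Wilson interval, and lengths and counts when they changed by over 1.5 times. Of 34 values of the main results under other settings, 29 did neither. That count is a weak check, since intervals from so few peaks are wide. The interval of the share on H3K27me3 ran from 18.5% to 61.4%, so 23.1% and 55.6% both passed as not moved. With scores from each list's median upward, H3K27ac lay on 11.1% of H3K4me3 peaks (1 of 9) in place of 31.2%, on 0% of distal H3K4me1 peaks (0 of 16) in place of 6.90%, and covered 1.45 kb in place of 5.47 kb. By construction, 7 of the 8 H3K27ac peaks are then left out. Widening each window by 10 kb on each side brought H3K27ac to 8.83 kb. Joining H3K27me3 within 1 kb gave 10 domains in place of 6. The share of H3K4me3 peaks on H3K27me3 (37.5%) ranged from 23.1%, with scores of 100 or more, to 55.6%, at or above the median score. The ranks by covered length moved in 7 of 20 comparisons, each against all autosomal tiles, most of which hold no H3K4me3. There the share of tiles with at least as much fell to between 1.36% and 2.30% for H3K27me3 at T, Eomes, Mesp1 with Mesp2 and Wnt3, and to between 9.28% and 29.2% for H3K27ac at T, Eomes and Wnt3. Unknown depth limits every statement that a mark had no peak.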
